A study of Mus musculus with 2 samples.

Results

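The somatic identity regulators of the ovary are the transcription factors and signalling molecules that make the supporting cells of the gonad ovarian and keep them so. The 10 genes Foxl2, Runx1, Wnt4, Rspo1, Ctnnb1, Gata4, Gata6, Wt1, Lhx9 and Sox9 were chosen by name for these known roles. Earlier results of these data were known when they were chosen, so the list is not independent of the values. All probes of these genes were taken by their RefSeq transcript, which gave 15 of the 55674 probes and 10 of the 20658 named genes on the array, printed at 25 of 59305 spots. Gene expression was measured with Agilent mouse microarrays labelled with a single dye, and 1 array was run for each of the 2 groups. The ovaries were from 2-week-old female mice, were cut into symmetrical pieces and were cultured for 3 days on inserts at 37 °C. In the agonist group the medium held agonists of the tachykinin receptors (TKRs) TACR1, TACR2 and TACR3, and in the antagonist group it held antagonists of the same receptors, each ligand at 1 μM. The agonists were [Sar9, Met(O2)11]-SP, GR-64349 and a succinylated substance P fragment, and the antagonists were L-703,606, GR-94800 and SB218795. Both groups therefore share the cutting and the culture. No array of untreated ovaries was analysed here, and the strain of the cultured ovaries and the number of ovaries behind each RNA are not given in the sources used here. With 1 array per group the spread between ovaries cannot be estimated, so the differences below are those between a pair of arrays, with no test and no p-value.

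In the developing gonad, WT1, LHX9 and the GATA factors act in the bipotential ridge before sex is decided. Supporting cells then follow SOX9 towards Sertoli cells in the testis, or R-spondin 1, WNT4 and β-catenin, together with FOXL2 and RUNX1, towards granulosa cells in the ovary. Granulosa cells surround the oocyte and make follicular hormones, and FOXL2 is known to hold their identity after birth, when its loss lets Sox9 be expressed. Several of the same genes are used elsewhere in the ovary, since RSPO1, WT1 and LHX9 also mark the surface epithelium.

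Signals are the background-corrected spot intensities of the image analysis software. The 75th percentile of all spots other than controls was 672 signal units with agonists and 569 with antagonists. A log2 ratio is the agonist log2 signal minus the antagonist log2 signal after each array's 75th percentile was subtracted. A fold is taken from that ratio. A probe counts as well above background by the software's own mark, which 65.4% of the agonist spots and 61.6% of the antagonist spots carried. For the 15258 named genes with this mark on both arrays, ratios centred on a median of -0.10, and the central 95% lay between -0.69 and 1.27. The software's own error estimate for a pair of spots was 0.20 to 0.24 on the log2 ratio of the member probes, and it describes spots, not ovaries. Where a gene had several probes it is represented by its brightest, called probe 1, and for the members the others are given beside it.

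All 15 probes of the 10 genes were well above background on both arrays. At the gene level 2 of the 10 members, Rspo1 and Lhx9, were at least 2-fold higher with the agonists, where 4.01% of all genes well above background on both arrays were. None (0 of 10) was at least 2-fold lower, where 0.577% of all genes were. Counted by probe, 3 of the 15 reached 2-fold upwards and 0 downwards, against 2.69% and 0.705% of all probes well above background on both arrays. Of the members 6 had a ratio above 0 and 4 below. Their median log2 ratio was 0.16, and 8 of the 10 lay above the median of all genes. Among these 8, Ctnnb1 equals that median after rounding. Foxl2 is counted by its brightest probe, and its other probe lay below. The small ratios of Ctnnb1, Gata4, Gata6 and Sox9 changed sign under some scalings, as given with each gene. In RNA of whole tissue, fewer cells of a type and less RNA per cell cannot be told apart.

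**Figure D1:**
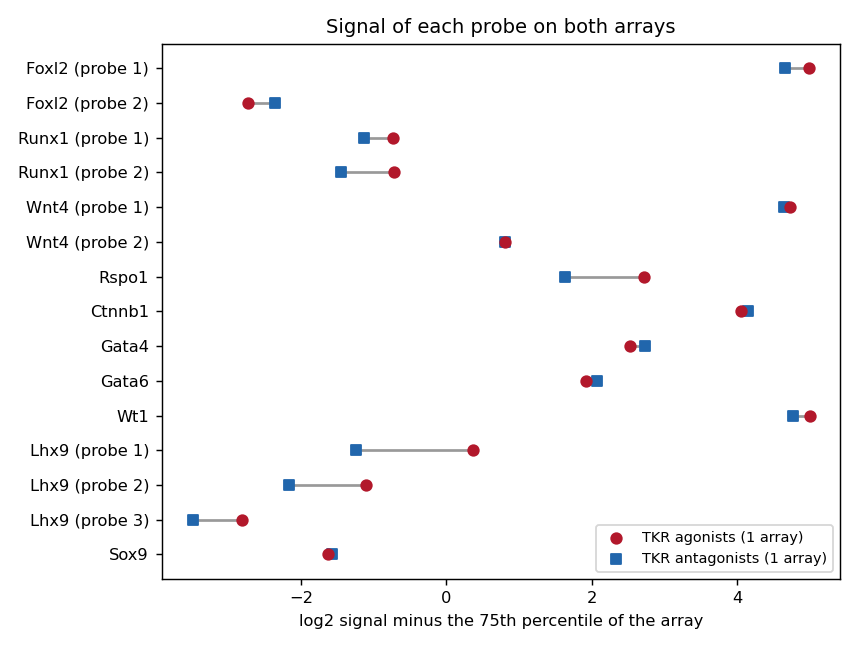
Log2 signal, after subtraction of the array's 75th percentile, of the 15 member probes with TKR agonists (circles) and TKR antagonists (squares), 1 array each, with a line joining the values of a probe. The longest lines are those of Lhx9 probe 1, Rspo1 and Lhx9 probe 2, and levels of different probes are not comparable.

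Of the granulosa transcription factors, FOXL2 is the forkhead factor that maintains granulosa cell identity. Foxl2 probe 1 (transcript NM_012020) had signals of 21198 (agonists) and 14379 (antagonists), which is a log2 ratio of 0.32 or 1.25-fold. Probe 2, for the same transcript, had 101 and 111 signal units, a log2 ratio of -0.37. The probes thus lay on opposite sides of 0, and did so under every scaling and background setting run, with probe 1 between 0.26 and 0.59 and probe 2 between -0.43 and -0.10. With both probes averaged the Foxl2 ratio was -0.03, so the array gives no direction for this gene. An antisense gene named after it, Foxl2os, which was looked up after the values were seen, had 403 against 273 signal units on 1 probe and 78.4 against 55.9 on another, log2 ratios of 0.32 and 0.25. The notes used here do not say whether either kind of probe could also bind the other strand's product.

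RUNX1 is a runt-domain factor of the fetal granulosa lineage. Runx1 probe 1 (NM_009821) gave 403 signal units in the agonist group against 260 in the antagonist group, or 0.39 as a log2 ratio. Probe 2 (NM_001111022) had 408 and 208, a log2 ratio of 0.73 or 1.66-fold. Both Runx1 probes were brighter on the agonist array and both were under 2-fold. The settings gave 0.28 to 0.66 for probe 1 and 0.57 to 1.01 for probe 2, which passed 2-fold only with scaling on spike-in controls.

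Among the Wnt and β-catenin members, R-spondin 1 is a secreted protein that binds LGR receptors and keeps Wnt receptors on the cell surface. The single Rspo1 probe (NM_138683) read 4401 signal units under agonists against 1755 under antagonists, a log2 ratio of 1.08 or 2.12-fold. This is a bright probe, and its ratio stayed at or above 2-fold under every setting run, between 1.01 with normexp background correction and 1.36 with scaling on spike-in controls.

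WNT4 is the Wnt ligand of the ovarian pathway. Wnt4 probe 1 (NM_009523) had 17778 and 14152 signal units with agonists and antagonists, a log2 ratio of 0.09. Probe 2 had 1177 and 994, a log2 ratio of 0.00. Both ratios were smaller than the software's error after this scaling, and the settings gave 0.03 to 0.36 for probe 1 and -0.05 to 0.28 for probe 2. Both exceeded that error without scaling and with scaling on spike-in controls, and probe 1 also with quantile and loess scaling. β-catenin, encoded by Ctnnb1, carries the Wnt signal to the nucleus and also links cadherins to the cytoskeleton. The 2 spots of its probe (NM_007614) had 10974 and 11338 signal units with the agonists and 10080 and 10081 with the antagonists. After scaling the spots gave log2 ratios of -0.12 and -0.07, with a mean of -0.10, equal to the median of all genes. The mean changed sign in 6 of the 12 alternative settings, between -0.15 and 0.18.

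GATA4 and GATA6 are zinc finger factors of the somatic gonad that act on hormone and steroidogenic genes in granulosa cells. Gata4 (1 probe, NM_008092) read 3867 signal units under agonists against 3757 under antagonists, for a log2 ratio of -0.20. Gata6 (1 probe, NM_010258) had 2534 and 2394, a log2 ratio of -0.16. Both lay close to the median of all genes. Without scaling both were slightly positive, 0.04 for Gata4 and 0.08 for Gata6, and so they were with scaling on spike-in controls.

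Of the factors of the early gonad, WT1 is a zinc finger factor needed to form the gonadal ridge, and is later present in granulosa cells and the surface epithelium. Wt1 (1 probe, NM_144783) read 21407 signal units under agonists against 15468 under antagonists, for a log2 ratio of 0.23 or 1.17-fold, and the settings gave 0.17 to 0.50. An antisense gene named after it, Wt1os, was looked up after the values were seen. It had 206 and 102 signal units on the probe that was well above background, a log2 ratio of 0.78 or 1.71-fold.

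LHX9 is a LIM homeobox factor of the gonadal ridge and of the ovarian surface. Lhx9 probe 1 (NM_001025565) read 864 signal units under agonists against 240 under antagonists, for a log2 ratio of 1.61 or 3.05-fold. Probe 2 (NM_001042577) had 312 and 127, a log2 ratio of 1.05 or 2.08-fold. Probe 3, for the same transcript as probe 2, had 95.8 and 50.7, a log2 ratio of 0.68 or 1.60-fold. All Lhx9 probes were brighter on the agonist array under every setting run. Their mean was 1.11. Probe 1 stayed above 2-fold in every setting, between 1.31 and 1.88. Probe 2 fell below 2-fold with scaling on the median, at 0.998, and with normexp background correction, at 0.68, where probe 3 gave 0.18. On the same arrays the 7 surface epithelium markers measured had a median log2 ratio of 1.03, while Wt1, also of the surface epithelium, had 0.23. The part of the surface epithelium in the Rspo1 and Lhx9 values was not tested.

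SOX9 is the factor that directs supporting cells towards Sertoli cells in the testis. Its single probe (NM_011448) was printed at 10 spots, which gives the only look at the error of a member over many spots. On the agonist array the 9 spots without an outlier mark lay between 205 and 243 signal units and averaged 218 ± 11.2 (SD, n = 9 spots), and on the antagonist array between 179 and 208 and averaged 192 ± 9.82 (SD, n = 9 spots). Spots of 1 array share its RNA. The same spot was marked as an outlier on both arrays, at 288 and 250 signal units. Before scaling 9 of the 10 spots were brighter on the agonist array, and after scaling 3 of 10 were. The spot ratios then lay between -0.26 and 0.09. The Sox9 log2 ratio was -0.06 with an SD of 0.11 over the 9 unmarked spots, a spread of spots and not of ovaries. The sign turned in 4 of the 12 alternative settings, and the range was -0.11 to 0.22.

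**Figure D2:**
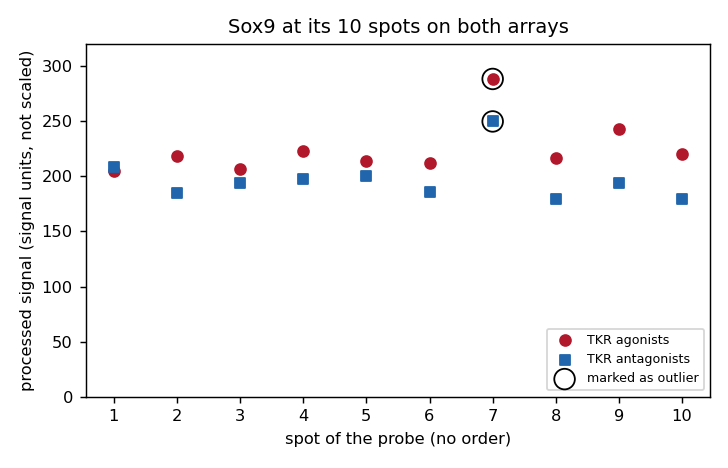
Processed signal, in signal units and not scaled, of Sox9 at the 10 spots of its probe on the agonist and antagonist arrays, with the spot marked as an outlier ringed. The agonist spots are brighter at 9 of 10 positions before scaling, and the probe's mean differs by less than the 75th percentiles of the arrays do.

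**Figure D3:**
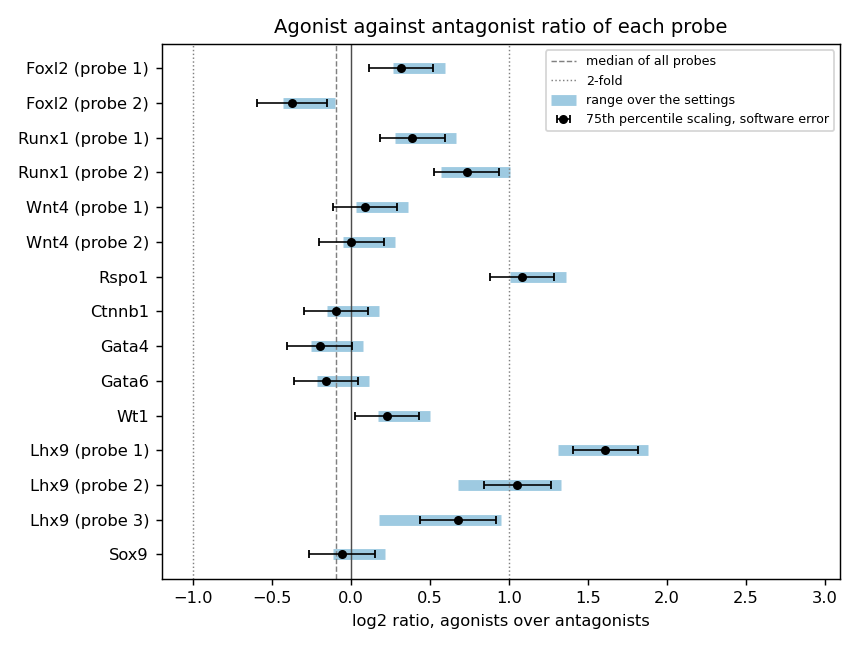
Log2 ratio of agonists over antagonists of each member probe, 1 array per group. Points are the values after 75th percentile scaling with the software's error, blue bars the range over the scaling, background and spot settings, the dashed line the median of all probes and the dotted lines 2-fold. Rspo1 and Lhx9 probe 1 stay beyond 2-fold over their whole range, and the Foxl2 probes stay on opposite sides of 0.

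The spread of ratios depends on signal, so each probe was set beside all probes of like brightness, in bands 1 log2 unit wide. Of the 15 member probes 13 lay inside the central 95% of their band and 2 outside, while over genes of all brightness 9 of the 10 members, Rspo1 included, lay inside the central 95% and only Lhx9 outside. Rspo1 lay above its band, where the central 95% of 2518 probes was -0.60 to 0.83 and 1.67% were at least 2-fold higher. Lhx9 probe 1 lay above its band too, where the central 95% of 3557 probes was -0.68 to 1.20 and 3.26% were at least 2-fold higher. Lhx9 probe 2 and Runx1 probe 2 shared a band that reached 1.19, and neither was outside it. The bright Foxl2, Wt1 and Wnt4 probes were all within -0.58 to 0.52.

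**Figure D4:**
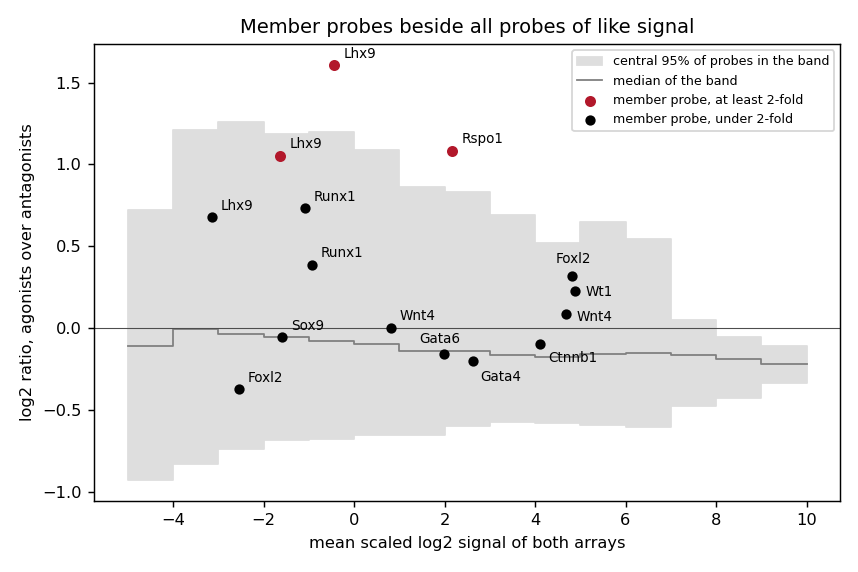
Log2 ratio of the member probes against their mean scaled log2 signal on both arrays. The grey steps hold the central 95% of all probes well above background on both arrays in each band of 1 log2 unit, the grey line is the band's median, and red points are at least 2-fold. Rspo1 and the brightest Lhx9 probe lie above the grey.

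Promoter sequence is shown for Rspo1 and Lhx9, the members at least 2-fold higher with the agonists. RefSeq promoters of assembly GRCm38.p6 were used for 6 of the 10 members, as 8 promoters of 250 bases before a transcript start. The sequences below are read 5′ to 3′ on the gene's strand, with CG dinucleotides in capitals. Rspo1 is at chr4:124986180-124986429 on the plus strand and Lhx9 at chr1:138842445-138842694 on the minus strand.
Rspo1: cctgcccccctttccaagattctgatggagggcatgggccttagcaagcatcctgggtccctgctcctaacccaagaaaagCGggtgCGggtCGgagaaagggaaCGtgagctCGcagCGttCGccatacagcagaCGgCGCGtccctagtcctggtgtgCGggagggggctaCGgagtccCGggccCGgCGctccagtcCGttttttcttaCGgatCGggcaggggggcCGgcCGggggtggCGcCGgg
Lhx9: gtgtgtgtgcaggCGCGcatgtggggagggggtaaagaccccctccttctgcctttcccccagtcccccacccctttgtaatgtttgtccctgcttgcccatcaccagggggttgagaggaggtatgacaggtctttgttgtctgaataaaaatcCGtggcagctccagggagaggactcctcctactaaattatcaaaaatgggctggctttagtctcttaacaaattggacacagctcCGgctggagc
The Rspo1 window holds 22 CG dinucleotides and is 66.8% G or C, and the Lhx9 window holds 4 and is 53.6%, where the medians of 32851 promoters were 6 and 52.4%. The Lhx9 start used lies inside the gene's full annotated span. Short motifs of the members' own factor families were searched on both strands, namely TGTGGT for RUNX, GTAAACA for FOX and AGATAA for GATA factors, AACAAT for SOX, CTTTGA for TCF/LEF and GTGGGAG for WT1. None (0) of the 8 member promoters used held a match, where 45.7% of all promoters held at least 1, from 3.17% for the FOX motif to 14.0% for the RUNX motif. Any member promoter on a single excluded chromosome was left out, while the share over all promoters kept that chromosome. The member windows were 45.6% to 85.2% G or C, and the share over all promoters was not matched for this. Ctnnb1 and Runx1 have more than 1 window each, and those of Ctnnb1 overlap. The absence of matches says only that these letters are not in these windows.

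The pathways around the members were described through lists of related genes. Cyp19a1, Nr5a2 and Hsd17b1 stand both in the FOXL2-related list and among the granulosa cell markers, Tcf21 both among the early gonad regulators and the stromal markers, and Gata1 both among the GATA and the testis genes. Of 13 granulosa genes downstream of FOXL2 or acting beside it, all were well above background on both arrays and 0 were at least 2-fold different, with a median log2 ratio of -0.13. The lowest was Fst, the activin antagonist follistatin, with 7384 signal units with the agonists and 10753 with the antagonists (-0.78). The highest was Irx3, an Iroquois homeobox gene of the pregranulosa lineage, with 4586 and 2330 (0.74).

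Around Rspo1, Wnt4 and Ctnnb1, 22 of 23 genes of R-spondin and Wnt reception and transduction were well above background on both arrays, and Rspo3 on neither. Of the 22, 1 was at least 2-fold higher and 0 lower, where 4.01% and 0.577% of all genes were. Their median log2 ratio was 0.07 and turned to -0.03 with normexp background correction. By their brightest probes 12 of the 22 lay above 0 and 10 below, the lowest being Apc, of the β-catenin destruction complex, at -0.41. The 2-fold gene was Fzd1, a Wnt receptor, with 4411 and 1856 signal units (1.01), which fell under 2-fold with scaling on the median (0.95) and with normexp background correction. Lgr5, a receptor for R-spondins, had 929 and 565 signal units (0.48). Axin2, a standard transcriptional target of β-catenin, had 722 and 480 (0.35) and 0.31 on its other probe. Of the TCF/LEF factor genes, Lef1 had -0.01, Tcf7l1 -0.24, Tcf7l2 0.14 and Tcf7 0.25, while the other probe of Tcf7 gave -1.10. Apc, Lgr5, Axin2 and the TCF/LEF genes were named for their place in the pathway after their values were seen. Of 5 adhesion partners of β-catenin 4 were well above background on both arrays (median 0.11), between -0.30 for the N-cadherin gene Cdh2 and 0.18 for the α-catenin gene Ctnna1.

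Beside Gata4 and Gata6, 6 cofactors and other GATA factors were all well above background, with a median log2 ratio of 0.41. Of the 6, 2 were at least 2-fold higher, where 4.01% of all genes were. Gata1, a factor of blood lineages and Sertoli cells, had 246 signal units under agonists against 31.3 under antagonists, a log2 ratio of 2.73, and Gata2, of blood and endothelial cells, had 165 and 60.9 (1.20). Each rests on 1 spot per array with a dim antagonist signal, and with normexp background correction they gave 1.38 and 0.59. The cofactor genes Zfpm1 and Zfpm2, encoding FOG proteins, had ratios of 0.09 and 0.00, and 0.02 and -0.18 on their other probes. Gata3 had 0.74 and Gata5 -0.06. These 4 genes were named after their values were seen. Of the RUNX partner and relatives 3 of 4 were well above background on both arrays (median -0.22). Among them Cbfb, which encodes the common partner of RUNX proteins, had -0.29 and Runx1t1, which encodes a corepressor, 0.26. Runx2, named after its value was seen, passed on the agonist array only, at least 1.29-fold higher there. Of the 10 other regulators of the early gonad described here, all well above background on both arrays, 0 were at least 2-fold different, with a median of -0.24 and extremes of -0.48 for the Polycomb gene Cbx2 and 0.77 for the mesenchymal factor gene Tcf21. Without scaling and with scaling on spike-in controls, the medians of the FOXL2-related, early gonad and RUNX lists lay above 0, and that of the RUNX list also with no filter on dim probes (0.02).

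Beside Sox9, 9 of 11 Sertoli cell and testis genes were well above background on both arrays and their median log2 ratio was 0.58, which falls to 0.04 over all 11 when dim probes are kept. Of the 9, 3 were at least 2-fold higher with the agonists, where 4.01% of all genes were. Besides Gata1 these were Ptgds, the prostaglandin D synthase gene, with 1082 and 284 signal units (1.69), and the tight junction gene Cldn11, with 1700 and 583 (1.30). Ptgds and Cldn11 are also expressed in other tissues. Others of the list stood elsewhere, with Dmrt1, a male sex-maintenance factor, at 0.04 and Dhh, the Desert hedgehog ligand that granulosa cells also make, at -0.78 with 1923 and 2787 signal units. Dmrt1, Dhh and Sry were named after their values were seen. Sry, the Y-linked switch upstream of Sox9, was well above background on the antagonist array only, at 26.9 against 15.2 signal units on 1 spot, where the lowest signal with that mark was 19.9. The ovaries were from female mice, so a mark at this dim signal is not read as Sry transcript.

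Markers of the cell types in the ovary were set beside the members. All 8 granulosa cell markers were well above background on both arrays, and so were the oocyte markers of the labelled tissue. Of the granulosa cell markers 6 had a ratio below 0, with a median log2 ratio of -0.47 and a range of -0.73 for Fshr to 0.38 for Amhr2. Their summed signal, in units of each array's 75th percentile, came to 892 under agonists and 1038 under antagonists. Sums over probes rest on the brightest, here Kctd14 with 86.2% and 85.8% of the sum, and without it the values were 123 and 147. In the other lists the brightest probe carried between 39.8% and 70.8%. The 8 oocyte markers lay between -0.13 and 0.21 with summed signals of 236 and 245. The surface epithelium list stood on the same side as Rspo1 and Lhx9. Its 7 genes with a probe all had ratios above 0, from 0.62 for Upk3b to 1.40 for Krt19, with a median of 1.03. Of the 7, 4 were at least 2-fold higher, where 4.01% of all genes were, and the summed signal was 37.3 against 17.5. Muc16 had no probe matched. Wt1, which also marks the surface epithelium, had a log2 ratio of 0.23, below the lowest of these markers. Stromal markers (median 0.41, summed signal 368 against 310.0), endothelial markers (0.68, 68.4 against 57.8) and leukocyte markers (0.85, 15.0 against 11.5) also had medians above 0. Of those well above background on both arrays, 5 of 6 stromal, 5 of 6 endothelial and 6 of 6 leukocyte markers had ratios above 0. Those below were Lum in stroma (-0.30) and Kdr in endothelium (-0.27, and 0.38 on its other probe). In the same lists Tek had at least 4.10-fold and Ptprc at least 1.81-fold more signal on the agonist array. For both, the antagonist array was not well above background. Spi1 passed on neither array, and Cd68 had no probe matched. Theca and steroidogenic cell markers had a median of -0.10, with Lhcgr on neither array and no probe matched to Insl3. Over all settings the granulosa cell median stayed below 0, between -0.53 and -0.19, and the surface epithelium median above it, between 0.84 and 1.30. The stromal, endothelial and leukocyte medians kept their sign too, and those of theca cells and oocytes did not. The part of endothelial cells and leukocytes in the ratios of Gata1 and Gata2 was not tested.

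**Figure D5:**
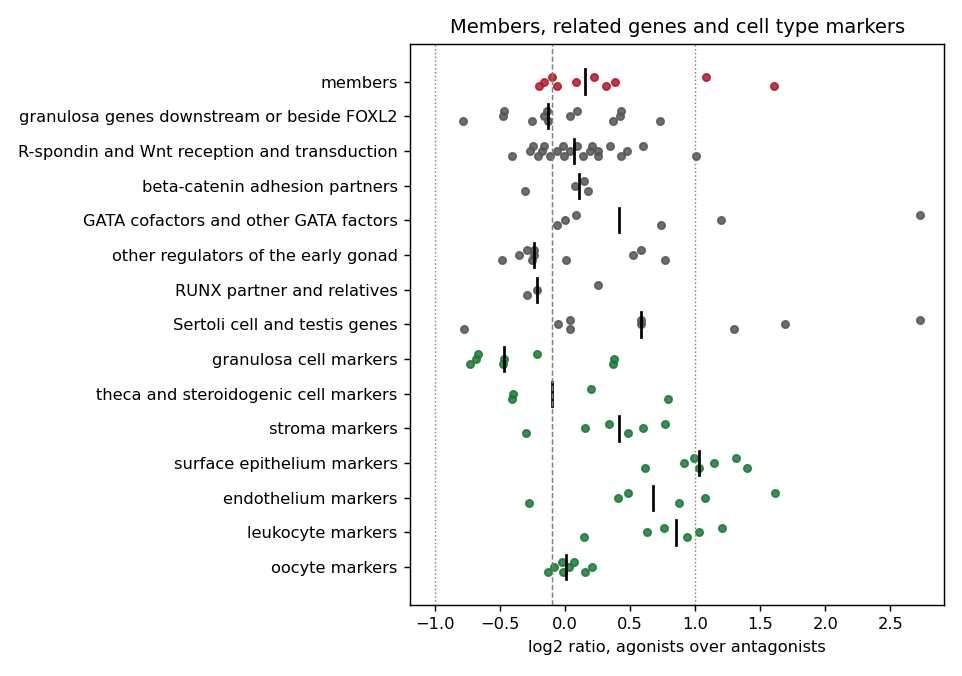
Log2 ratio of agonists over antagonists of the 10 members (red), related genes (grey) and cell type markers (green) well above background on both arrays, 1 point per gene, with the median of each list as a bar, the median of all genes as a dashed line and 2-fold as dotted lines. The surface epithelium markers lie between 0.62 and 1.40 and the granulosa cell markers between -0.73 and 0.38.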

How the data were processed

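Total RNA of cultured ovaries was labelled with Cy3 and hybridised to mouse whole-genome arrays, 1 per group, on the same slide, so that slide does not separate the groups. The authors deposited the background-corrected intensity of each spot from Agilent Feature Extraction 10.10.1.1, not scaled between arrays, and the software's 0 or 1 marks for outliers, saturation and signal well above background. A second deposited table of intensities equals these values times a constant per array (largest relative deviation 4.97e-10). The methods name no test for the arrays.

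Here 3671 control spots were dropped, the 75th percentile of each array was subtracted from log2 intensity, outlier spots were left out and a probe took the mean of its spots. More than 50% of a probe's spots had to carry the software's mark for it to count as well above background, and 0 spots were saturated. Where it did so on 1 array only, a fold is a lower bound, taken against the dim signal itself or, if higher, the lowest signal with that mark (18.1 with agonists, 19.9 with antagonists). The scanner files used hold no column of gene names, so probes were named by RefSeq accession through a table for GRCm38.p6 (27230 probes). The number of arrays limits the precision. As a description of technical error, 284 probes with 10 spots had a median SD of 0.07 in log2 ratio between spots, and 8 spike-in probes had log2 ratios from -0.08 to 0.13.

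Named are all members with all probes, and of each related list its genes at least 2-fold different (up to 4) or, failing these, its extremes. Further genes of these lists are named where the text says that they were chosen after their values were seen. The members and lists were chosen with earlier results of these data known. A gene of a related list is not reported here. Python 3.11.15, numpy 2.4.6, pandas 2.3.3, statsmodels 0.14.6, matplotlib 3.10.9, R 4.3.3 and limma 3.58.1 (normexp only) were used. The calculation was checked on simulated data with planted changes larger than those of the members, so the check does not bear on calls near 2-fold. The alternatives tried were quantile, loess (span 0.3), spike-in and median scaling, scaling on probes well above background throughout, unscaled signals, the second deposited table, normexp (offset 50), outlier spots kept, the median over spots, the mean over probes, no filter on dim probes and a 1.5-fold threshold.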

Additional observations from a re-analysis of the deposited data

How the results depend on the processing

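Under each of the 12 alternatives 2 members were at least 2-fold higher and 0 lower, and at a threshold of 1.5-fold the counts were 2 and 0 as well. The share of all genes at least 2-fold higher was 4.01%, and 2.11% with normexp background correction. It was 6.5% without scaling, 6.89% with scaling on spike-in controls and 6.53% with no filter on dim probes. The share at least 2-fold lower ran from 0.216% to 2.68%. At 1.5-fold 9.26% of all genes were higher and 4.28% lower. The median log2 ratio of the members was 0.16, moved to 0.40 without scaling and to 0.43 with scaling on spike-in controls, and lay between 0.01 and 0.32 otherwise. The median of all genes moved with it, from -0.10 to 0.15 and 0.18. The share of higher genes among those at least 2-fold different was 87.4%, against 96.2% on unscaled signals, 96.8% on spike-in controls, 70.9% with no filter on dim probes and 68.4% at 1.5-fold. The counts behind these were 612 higher and 88 lower genes, 992 and 39 on unscaled signals, 1052 and 35 on spike-in controls, 1349 and 554 with no filter, 1413 and 653 at 1.5-fold, and 322 and 33 with normexp background correction. Of 120 values of member genes under 12 alternatives, 97 moved by less than the software's error. Many of these could not move. The spot settings bear only on probes with several spots, the mean over probes only on genes with several probes, and the filter on no member. Scaling by a constant per array shifts all genes alike, so this tally does not measure how stable the members are. Of the 120 values 15 had the opposite sign, all of them in Foxl2, Ctnnb1, Gata4, Gata6 and Sox9. Signal over background limits the dim probes, among them Foxl2 probe 2 and Lhx9 probe 3. No paired analysis was possible because only a single array stands for each group and nothing was tested.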
